A study of Mus musculus with 9 samples.

Results

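The corticosteroid receptors, the proteins around them and genes known to respond to glucocorticoids were followed in punches of the paraventricular nucleus of the hypothalamus (PVN). The set holds 9 genes and was chosen by gene name, not by measured values, though with earlier results of these data known. It comprises the receptors Nr3c1 and Nr3c2, the receptor co-chaperone Fkbp5, the hormone-responsive genes Sgk1, Tsc22d3, Zbtb16 and Ddit4, the steroid enzyme Hsd11b1 and the receptor for corticotropin-releasing hormone, Crhr1. All 9 were found among the 27179 genes of the count table, and all 9 were among the 17344 genes with enough counts to be tested.

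RNA was sequenced in bulk from 9 male wild-type mice of the strain C57BL/6 (C57BL/6J in the study's methods), with 3 in each of 3 groups. Control mice ate a chow diet with 16% of calories from fat, and HFD mice ate a high fat diet with 60% of calories from fat. HFD+Mino mice ate the same high fat diet and received minocycline, a tetracycline antibiotic that dampens the activity of microglia, at 40 mg/kg/day. Diets began at 5 weeks of age and lasted 12 weeks, with minocycline in the last 6 weeks, while the sample labels give an age of postnatal day 35. No group received minocycline on chow, so minocycline was compared under the high fat diet alone.

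The glucocorticoid receptor (GR, gene Nr3c1) and the mineralocorticoid receptor (MR, gene Nr3c2) are transcription factors that bind corticosterone, the main adrenal glucocorticoid of mice. MR has the higher affinity for the hormone and is largely occupied at rest, while GR fills when the level rises in the active phase or under stress. The PVN holds the neurons that release corticotropin-releasing hormone and so start the adrenal response, and GR in these neurons takes part in the negative feedback that ends it. Genes such as Fkbp5, Sgk1, Tsc22d3 and Zbtb16 carry binding sites for the activated receptor and are widely used as readouts of its activity.

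Total counts were lowest in HFD replicate 1 (17728590) and highest in Control replicate 1 (42326213). The libraries differed in their levels of cell type markers. In Control replicate 1 the 8 markers of PVN neurons summed to 131 CPM (read counts scaled to a common library size by TMM), against 1195 and 2726 in the other Control samples, from 2946 to 3868 in HFD and from 3819 to 38064 in HFD+Mino. Of these markers, Avp, Oxt, Sim1, Otp and Brs3 stood at 0.149, 0.770, 0.770, 0.0 and 0.894 CPM in that library, Otp with 0 counts, and Trh and Sst at 5.49 and 102 CPM, all 7 below the levels in the other 8 libraries. Crh, at 20.6 CPM, lay within their range of 14.4 to 153 CPM. The 8 oligodendrocyte markers summed to 29514 CPM in the same library and to between 2271 and 6944 CPM in the other 8. HFD+Mino replicates 1 and 2 stood apart in the other direction, with 28049 and 22180 CPM of the vasopressin gene Avp against at most 1984 CPM elsewhere. The 8 markers of neighboring hypothalamic nuclei summed to 3758 CPM in Control replicate 2 and to between 54.0 and 505 CPM in the other 8 libraries. Sums of 8 markers of choroid plexus and ependyma did not overlap between groups. They were 24.6 to 139 CPM in Control, 150 to 285 CPM in HFD and 310 to 637 CPM in HFD+Mino. The part of these sums in the members' levels was not tested. Ribosomal RNA genes took 0.359% to 0.441% of the counts in HFD, 0.0272% to 0.0456% in Control and 0.0466% to 0.118% in HFD+Mino, and no member's call changed when they and the mitochondrial genes were left out. The members' comparisons with Control are given with and without Control replicate 1. In bulk tissue, fewer cells of a type and less RNA per cell cannot be told apart.

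A gene was called when its false discovery rate (FDR, Benjamini-Hochberg over all 17344 genes, edgeR quasi-likelihood test) was under 0.01 and its change was at least 1.5-fold. The GILZ gene Tsc22d3, an anti-inflammatory glucocorticoid target, was the 1 member called, and it rose 2.54-fold in HFD+Mino over HFD. GR and MR mRNA were higher in each HFD mouse than in any of the 6 other mice, and Tsc22d3 and Hsd11b1 were lower in each HFD mouse than in any other, all without a call for HFD against Control. Fkbp5, Sgk1, Ddit4 and Zbtb16 varied among the HFD+Mino mice by 3.60 to 10.7-fold, more than within the other groups.

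For HFD against Control, 0 of 9 members were called by edgeR, beside 1.74% of all tested genes (302), and 6 of 9 had an unadjusted p under 0.05, beside 20.5%. DESeq2 called 1 member, Hsd11b1, beside 6.91% of all genes. The groups did not overlap for 7 of 9 members, 2 higher and 5 lower in HFD, beside 35.7% of all genes (19.7% higher and the rest lower), and the count was again 7 of 9, beside 42.5%, without Control replicate 1. In HFD+Mino against HFD, 1 of 9 was called, beside 4.15% of all genes (719, or 1.98% in the direction of this member), and 5 of 9 had an unadjusted p under 0.05, beside 41.3%. DESeq2 called the same member there, beside 23.0% of all genes. The groups did not overlap for 4 of 9 members, 2 higher and 2 lower in HFD+Mino, beside 46.7% of all genes (23.3% and 23.5%), so that the share among the members was near that background, and for 6 of 9, beside 63.3%, without HFD+Mino replicate 3. In HFD+Mino against Control, 0 of 9 were called, beside 0.0% of all genes, and DESeq2 also called 0 members, beside 1.59% of all genes (276). An unadjusted p under 0.05 was found for 2 of 9 members, beside 21.3%, and the groups did not overlap for 1 member, Crhr1, beside 19.1% (10.1% in its direction). Without Control replicate 1 they did not overlap for 2 members, Tsc22d3 (higher) and Crhr1 (lower), beside 32.5%, and without HFD+Mino replicate 3 for Zbtb16 and Crhr1, both lower, beside 50.2%. The 3-way test asks for any difference among the groups, and its call asks in addition that HFD is at one end. It called 0 of 9 members, beside 2.13% of all genes. An unadjusted p under 0.05, which does not ask for HFD at one end, was found for 5 of 9, beside 39.0%. DESeq2, which called 13.6% of all genes in that test, and edgeR with Control and HFD+Mino blocked by replicate number, which called 13.2%, each found 2 members, Tsc22d3 and Hsd11b1. The HFD samples enter both the comparison with Control and that with HFD+Mino, so these share them. HFD lay beyond all 6 other samples for 4 of 9 members, 2 above and 2 below, beside 23.0% of all genes (13.4% and 9.62%).

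**Figure D1:**
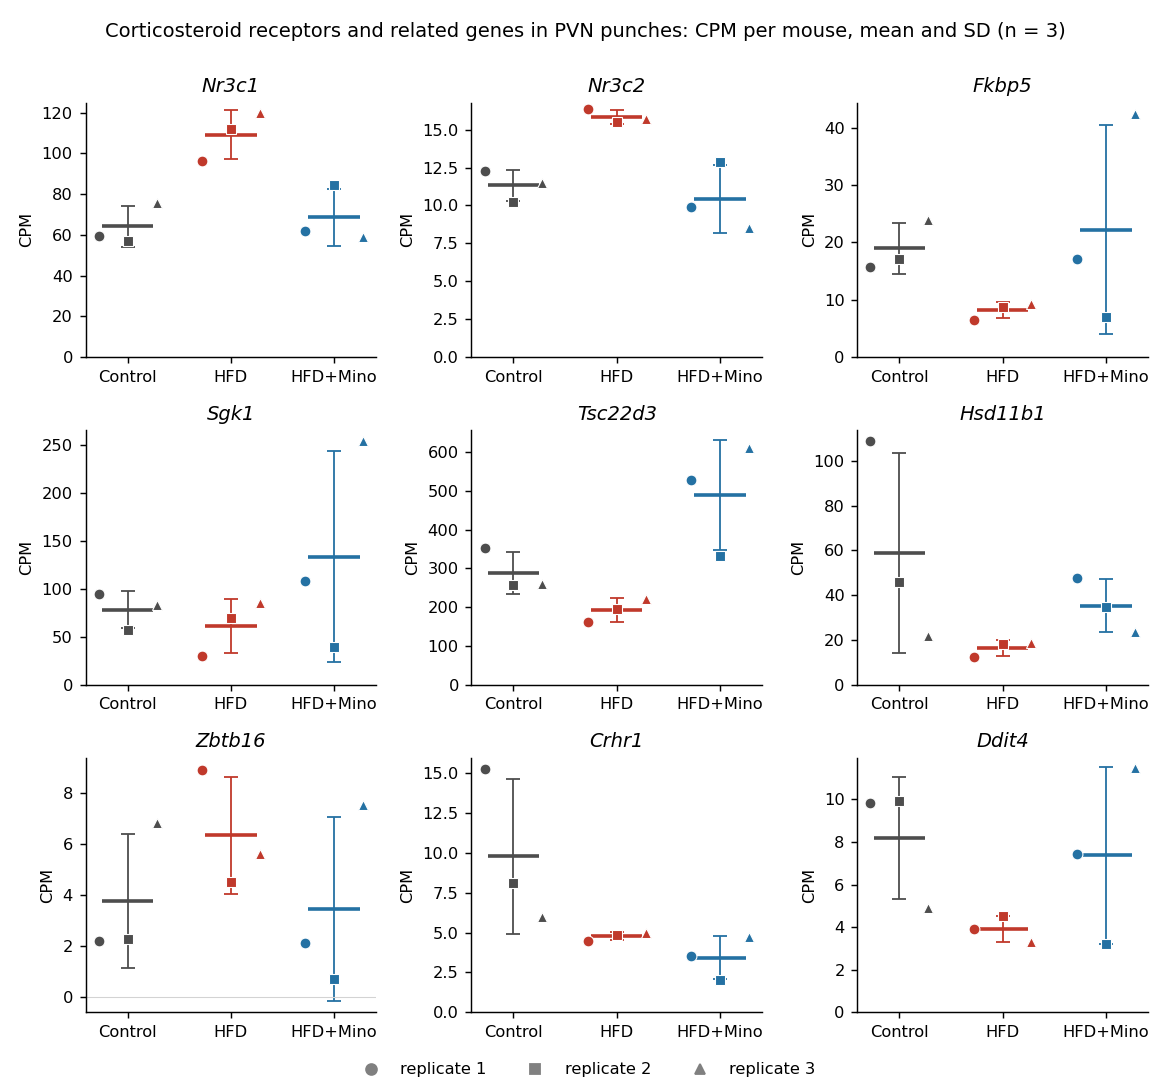
CPM (TMM-scaled, y axis from 0) of the 9 genes in each mouse, by group. Symbols mark the replicate number, horizontal bars the group mean and whiskers the SD (n = 3). Nr3c1 in HFD lay between 96.1 and 120.0 CPM, above all 6 other mice, while HFD+Mino replicate 3 was the highest of the 9 mice for Fkbp5, Sgk1, Tsc22d3 and Ddit4.

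Nr3c1 (Entrez 14815, chr18:39410545-39519421, minus strand, GRCm38) encodes GR. It stood at 59.5, 57.2 and 75.7 CPM in Control replicates 1 to 3, at 96.1, 112 and 120.0 CPM in HFD and at 62.1, 84.4 and 59.1 CPM in HFD+Mino. The lowest HFD mouse thus lay above the highest mouse of either other group, while Control and HFD+Mino overlapped. The difference between HFD and Control was 0.77 on the log2 scale (SE 0.22, 95% CI 0.28 to 1.25, edgeR FDR = 0.070). It was 0.71 with an FDR of 0.238 without Control replicate 1. From HFD to HFD+Mino the log2 difference was -0.67 (SE 0.22, 95% CI -1.16 to -0.19, FDR = 0.043), and between HFD+Mino and Control it was 0.10 (95% CI -0.39 to 0.58, FDR = 0.819) with all samples and 0.04 without Control replicate 1.

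Nr3c2 (Entrez 110784, chr8:76898083-77245012, plus strand) encodes MR. It had 12.2, 10.2 and 11.5 CPM in Control, 16.4, 15.5 and 15.7 CPM in HFD and 9.93, 12.9 and 8.50 CPM in HFD+Mino. The HFD values lay close together, with an SD of 0.455 CPM, and above the 6 others. On the log2 scale HFD exceeded Control by 0.48 (SE 0.25, 95% CI -0.05 to 1.02, edgeR FDR = 0.292) and HFD+Mino differed from HFD by -0.61 (SE 0.25, 95% CI -1.14 to -0.07, FDR = 0.087). The gene Gm10649 overlaps 247 nt of its exons on the opposite strand, and whether reads were counted by strand is not given in the sources used here.

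Both receptors have long transcripts, with 7684 nt of exon for Nr3c1 and 6474 nt for Nr3c2, and exon length moved with the comparisons. Genes that were called lower in HFD+Mino than in HFD had a median of 7928 nt of exon, those called higher 2816 nt, and those not called 4296 nt. With a smooth trend on exon length removed from each sample, the log2 difference of Nr3c1 was 0.51 for HFD against Control (FDR = 0.180) and -0.16 for HFD+Mino against HFD (FDR = 0.610). For Nr3c2 these values were 0.27 (FDR = 0.599) and -0.15 (FDR = 0.729). The part of exon length in the receptor differences was not tested further.

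**Figure D2:**
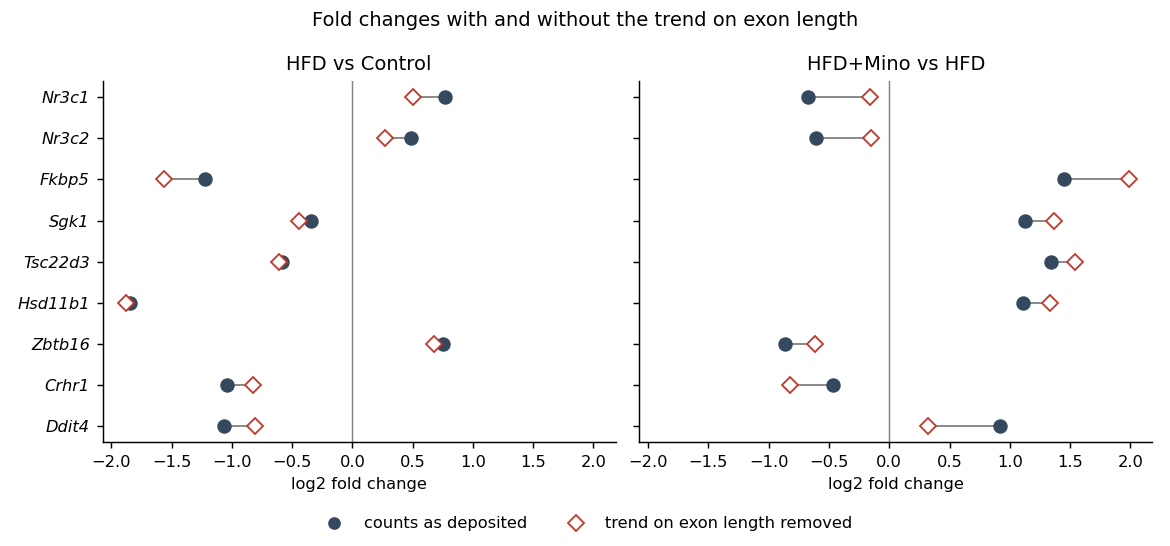
log2 fold change (x axis) of each of the 9 genes (y axis) for HFD vs Control and HFD+Mino vs HFD, from the counts as deposited (filled circles) and after a trend on exon length was removed from each sample (open diamonds). For HFD+Mino vs HFD, Nr3c1 moved from -0.67 to -0.16 and Nr3c2 from -0.61 to -0.15, while Tsc22d3 moved from 1.35 to 1.54.

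Per kilobase of exon, the mean and SD of Nr3c1 (n = 3) were 8.35 ± 1.31 CPM per kb for Control, 14.2 ± 1.58 for HFD and 8.92 ± 1.80 for HFD+Mino. Nr3c2 was at 1.75 ± 0.158, 2.45 ± 0.0703 and 1.61 ± 0.343 CPM per kb in the same order of groups. GR mRNA per kb was therefore 4.78 ± 0.73 times MR mRNA in Control, 5.82 ± 0.78 times in HFD and 5.56 ± 0.30 times in HFD+Mino, and the ranges of the ratio, 4.10 to 5.54, 4.95 to 6.44 and 5.27 to 5.87, overlapped. In the order of levels per kb, Tsc22d3 was first in each group, with means from 44.4 to 113 CPM per kb. Sgk1, Hsd11b1 and Nr3c1 took ranks 2 to 4 in each group. Sgk1 and Nr3c1 differed in HFD by less than the SD of Sgk1 (12.5 ± 5.78 against 14.2 ± 1.58 CPM per kb), and Hsd11b1 differed from its neighbors in Control by less than its own SD (13.8 ± 10.5). Zbtb16 was last in Control and HFD+Mino, and Fkbp5 was last in HFD, at 0.857 ± 0.147 CPM per kb.

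Fkbp5 (Entrez 14229, chr17:28398753-28486149, minus strand) encodes a co-chaperone that lowers the hormone affinity of GR and is itself induced by GR, which closes a short feedback loop. Its level was 15.7, 17.2 and 23.9 CPM in Control, 6.53, 8.64 and 9.16 CPM in HFD and 17.0, 7.06 and 42.4 CPM in HFD+Mino. Each HFD mouse lay below each Control mouse, whereas HFD+Mino replicate 2 lay within the HFD range and replicate 3 above all other mice. The log2 difference was -1.22 for HFD against Control (SE 0.51, 95% CI -2.34 to -0.10, edgeR FDR = 0.204) and 1.45 for HFD+Mino against HFD (SE 0.51, 95% CI 0.33 to 2.57, FDR = 0.055). Without HFD+Mino replicate 3 the second value was 0.57 (FDR = 0.259). With the trend on exon length removed and with Control and HFD+Mino blocked by replicate number, it was 1.73 and passed the thresholds (FDR = 0.0084). In that setting 16.1% of all genes were called.

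Tsc22d3 (Entrez 14605, chrX:140539528-140600522, minus strand) encodes GILZ, a leucine zipper protein through which glucocorticoids restrain inflammatory transcription factors. It was measured at 352, 256 and 259 CPM in Control, 160.4, 196 and 222 CPM in HFD and 528, 333 and 609.5 CPM in HFD+Mino. HFD mice were the lowest 3 of the 9, and all HFD+Mino mice lay above all HFD mice. Tsc22d3 rose by 1.35 on the log2 scale from HFD to HFD+Mino (SE 0.27, 95% CI 0.76 to 1.93, edgeR FDR = 0.00951). The 2 other differences were -0.58 for HFD against Control (95% CI -1.16 to -0.0049, FDR = 0.240) and 0.76 for HFD+Mino against Control (95% CI 0.18 to 1.34, FDR = 0.154), the latter 0.93 without Control replicate 1 (FDR = 0.152). The call rested on a value close to the threshold. With 1 sample left out it was kept without Control replicate 1 (FDR = 0.0081), HFD+Mino replicate 2 (0.0069) and HFD+Mino replicate 3 (0.0062). These fits called 5.27%, 1.89% and 21.4% of all genes, beside 4.15% with all samples. The call was lost without Control replicate 2 (0.0212) or 3 (0.0103), without HFD replicate 1 (0.0461), 2 (0.0438) or 3 (0.0459) and without HFD+Mino replicate 1 (0.0404). In that order, these fits called 0.828%, 4.78%, 0.307%, 0.328%, 0.162% and 0.590% of all genes. The log2 difference stayed between 1.16 and 1.56 with any 1 sample left out.

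Sgk1 (Entrez 20393, chr10:21882184-21999903, plus strand) encodes a kinase that raises the surface level of ion channels and transporters and answers to both corticosteroid receptors. It had 94.4, 56.8 and 83.3 CPM in Control, 29.9, 69.4 and 84.9 CPM in HFD and 109, 38.9 and 254 CPM in HFD+Mino. The groups overlapped in all 3 comparisons, and the spread within HFD+Mino was 6.53-fold. The log2 differences were -0.35 for HFD against Control (95% CI -1.58 to 0.88, edgeR FDR = 0.765) and 1.12 for HFD+Mino against HFD (95% CI -0.12 to 2.36, FDR = 0.156). Without HFD+Mino replicate 3 the latter was 0.26 (FDR = 0.700).

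The activated receptors bind, as a pair, an element of 15 bases made of 6-base half-sites that face each other, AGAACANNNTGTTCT in its ideal form. Promoter windows of 300 bases, from 250 before to 50 after each start, were read from RefSeq (GRCm38.p6) for 7 of the 9 members, not for Nr3c1 and Zbtb16. Both strands were searched, and a full element also counts as 2 half-sites. The half-site was present in 19.0% of all 32851 windows and the full element in 3 of them (0.00913%). Among the 14 windows of the members, 4 held a half-site, 3 of Sgk1 and 1 of Tsc22d3, and 1 window of Sgk1 held the full element. The stretches of Sgk1 and Tsc22d3 that hold these letters are shown because they are the members with a match, with half-sites and the element in capitals. The Sgk1 stretch is chr10:21993640-21993889 on the plus strand, within an intron of the longer Sgk1 transcripts, and its element lies 189 to 175 bases before the start of a shorter transcript. The Tsc22d3 stretch is chrX:140600660-140600772 on the minus strand, and its half-site lies 185 to 180 bases before the RefSeq start.
Sgk1: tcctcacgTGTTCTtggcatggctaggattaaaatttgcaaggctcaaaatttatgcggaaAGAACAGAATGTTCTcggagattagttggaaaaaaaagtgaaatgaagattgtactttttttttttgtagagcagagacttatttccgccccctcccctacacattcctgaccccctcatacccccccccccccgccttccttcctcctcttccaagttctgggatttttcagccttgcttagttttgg
Tsc22d3: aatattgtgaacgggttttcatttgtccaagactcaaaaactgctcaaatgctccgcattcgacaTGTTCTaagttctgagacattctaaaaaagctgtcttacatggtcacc

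A match of letters is a description of these windows and not a binding site. Within these windows the called Tsc22d3 held a half-site only, and Sgk1, with the full element, was not called in any of the comparisons. Sequence outside the windows was not searched, and the part of these letters in the members' levels was not tested.

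Ddit4 (Entrez 74747, chr10:59949675-59951770, minus strand) encodes REDD1, an inhibitor of mTORC1 induced by glucocorticoids, energy stress and low oxygen. It had 9.81, 9.91 and 4.89 CPM in Control, 3.92, 4.52 and 3.31 CPM in HFD and 7.43, 3.19 and 11.5 CPM in HFD+Mino. All HFD mice lay below all Control mice, and HFD+Mino replicate 2 was the lowest of the 9. The log2 differences were -1.07 for HFD against Control (95% CI -2.07 to -0.07, edgeR FDR = 0.215) and 0.91 for HFD+Mino against HFD (95% CI -0.09 to 1.92, FDR = 0.152). The latter was 0.44 without HFD+Mino replicate 3 (FDR = 0.461) and 0.32 with the trend on exon length removed (FDR = 0.688).

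Zbtb16 (Entrez 235320, chr9:48651797-48836225, minus strand) encodes the transcription factor PLZF, which glucocorticoids induce in many cell types. Its counts ran from 19 to 276. Levels were 2.21, 2.29 and 6.83 CPM in Control, 8.93, 4.52 and 5.60 CPM in HFD and 2.12, 0.706 and 7.54 CPM in HFD+Mino, with overlap in all 3 comparisons. The log2 difference for HFD against Control was 0.75 with a 95% CI from -0.85 to 2.35 (edgeR FDR = 0.598), too wide to place its sign. For HFD+Mino against HFD it was -0.87 (95% CI -2.47 to 0.74, FDR = 0.396), and -2.15 without HFD+Mino replicate 3 (FDR = 0.0277).

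**Figure D3:**
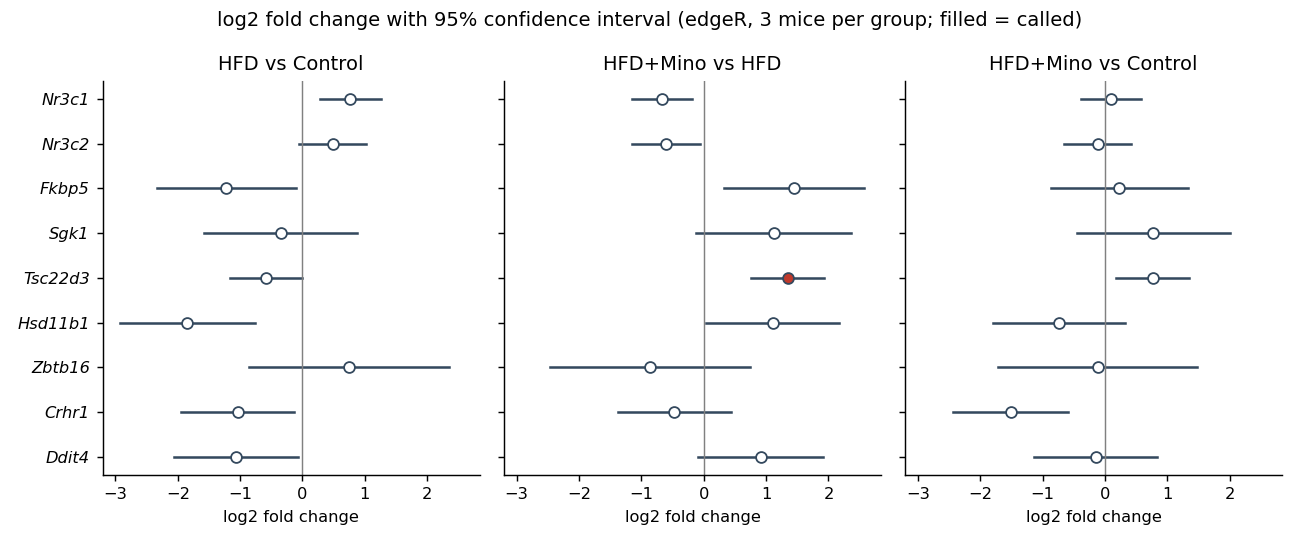
log2 fold change (x axis) with its 95% confidence interval for each gene (y axis) in the 3 comparisons, from an edgeR model of all 9 samples (3 mice per group). The filled point, Tsc22d3 in HFD+Mino vs HFD at 1.35, is the 1 member called at FDR under 0.01 and at least 1.5-fold. Intervals of Zbtb16 and Sgk1 are the widest.

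Hsd11b1 (Entrez 15483, chr1:193221640-193264045, minus strand) encodes the enzyme that regenerates active corticosterone from its inert 11-keto form inside cells, and so sets the hormone available to the receptors. It ranged widely in Control, at 109, 46.0 and 21.8 CPM, against 12.3, 18.3 and 18.3 CPM in HFD and 47.4, 34.7 and 23.6 CPM in HFD+Mino. All HFD mice lay below all 6 others, with Control replicate 3 the closest of them. The log2 difference for HFD against Control was -1.85 (SE 0.49, 95% CI -2.93 to -0.76, edgeR FDR = 0.053). It was -1.05 with an FDR of 0.211 without Control replicate 1, the library with the lowest sum of PVN markers, and -2.24 with an FDR of 0.0107 without Control replicate 3. It passed the thresholds in DESeq2 (FDR = 0.0024), in the likelihood ratio test of edgeR (0.0054) and with Control and HFD+Mino blocked by replicate number (-1.57, FDR = 0.0051), the latter pair with 5.57% and 6.22% of all genes called. The log2 difference from HFD to HFD+Mino was 1.11 (95% CI 0.04 to 2.17, FDR = 0.110). For HFD+Mino against Control it was -0.74 (95% CI -1.80 to 0.31, FDR = 0.383), and 0.05 without Control replicate 1.

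Crhr1 (Entrez 12921, chr11:104130463-104175523, plus strand) encodes the main receptor for corticotropin-releasing hormone, which is most abundant in the pituitary and in cortical and limbic neurons. It was measured at 15.3, 8.10 and 6.01 CPM in Control, 4.47, 4.87 and 4.95 CPM in HFD and 3.53, 2.04 and 4.73 CPM in HFD+Mino. All Control mice lay above all mice on the high fat diet, and the highest value was again that of Control replicate 1. The log2 difference was -1.04 for HFD against Control (95% CI -1.95 to -0.13, edgeR FDR = 0.184) and -1.51 for HFD+Mino against Control (95% CI -2.43 to -0.59, FDR = 0.132). Without Control replicate 1 these were -0.57 (FDR = 0.637) and -1.04 (FDR = 0.189). The part of the marker levels of that library in those of Hsd11b1 and Crhr1 was not tested.

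Among the other members, leaving out Control replicate 1 gave log2 differences for HFD against Control of 0.54 for Nr3c2, -1.34 for Fkbp5, -0.19 for Sgk1, -0.42 for Tsc22d3, -0.92 for Ddit4 and 0.47 for Zbtb16 (edgeR FDR from 0.298 to 0.955). All kept the direction they had with the library. HFD+Mino and Control differed on the log2 scale by 0.23 for Fkbp5 (95% CI -0.87 to 1.32), 0.78 for Sgk1 (-0.46 to 2.01), -0.15 for Ddit4 (-1.14 to 0.83), -0.12 for Zbtb16 (-1.71 to 1.48) and -0.12 for Nr3c2 (-0.66 to 0.42). These intervals span 0 and leave room for differences of more than 1.5-fold in at least 1 direction for each of the 5 genes. Without Control replicate 1 the values were 0.11 for Fkbp5, 0.93 for Sgk1, -0.0042 for Ddit4, -0.39 for Zbtb16 and -0.06 for Nr3c2 (edgeR FDR from 0.424 to 0.997).

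**Figure D4:**
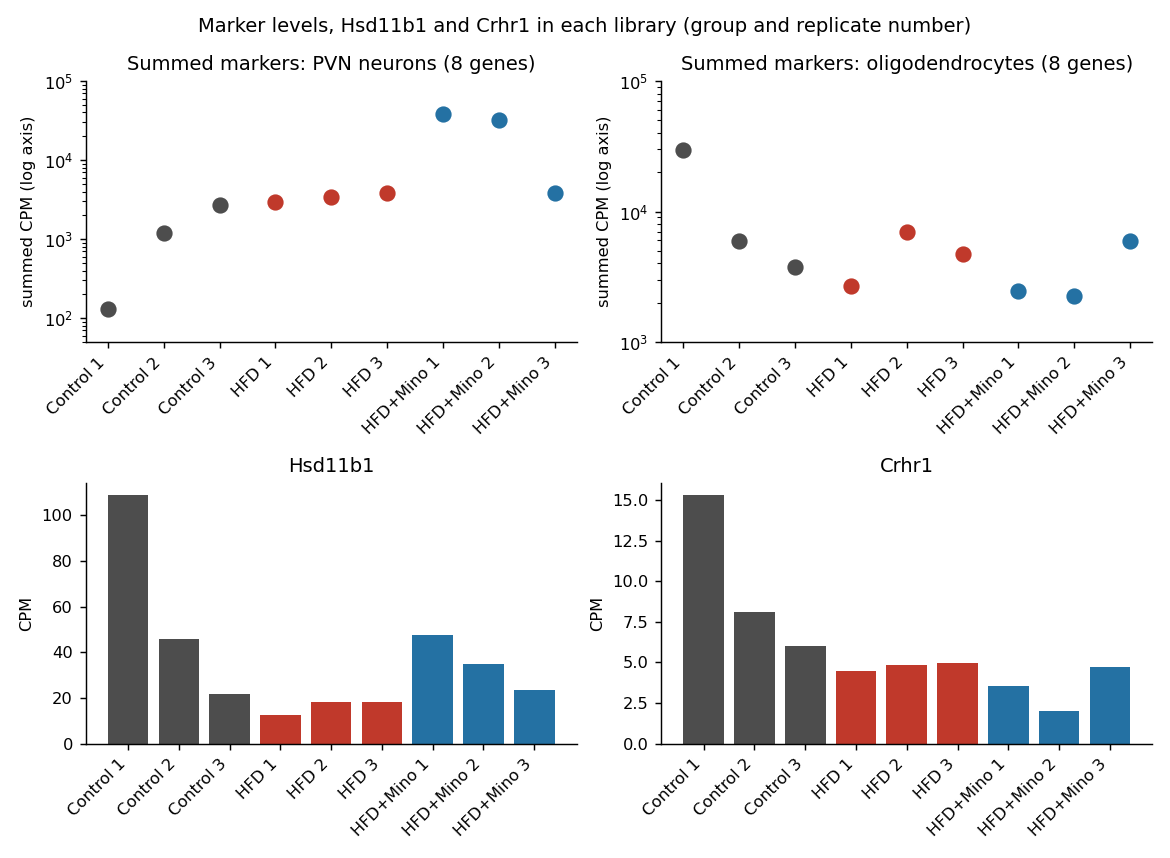
Summed CPM of 8 markers of PVN neurons and of 8 oligodendrocyte markers (upper panels, log axis), and CPM of Hsd11b1 and Crhr1 (lower panels, bars from 0), in each of the 9 libraries, colored by group. Control replicate 1 had the lowest PVN sum (131 CPM), the highest oligodendrocyte sum (29514 CPM) and the highest levels of Hsd11b1 (109 CPM) and Crhr1 (15.3 CPM).

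The rest of the pathway was read from 5 lists with 76 genes. Of 12 steroid receptor chaperones, 0 were called by edgeR for HFD against Control, with 2 (16.7%) at an unadjusted p under 0.05, beside 20.5% of all genes, and 1 (8.33%) was called, higher, for HFD+Mino against HFD, beside 4.15%. DESeq2 called 2 and 3 of the 12, beside 6.91% and 23.0% of all genes. The gene called by edgeR was Bag1, a co-chaperone of HSP70 that binds GR, at 168 to 259.6 CPM in Control, 52.3, 101 and 78.9 CPM in HFD and 311, 270.4 and 194 CPM in HFD+Mino. Its HFD values lay below all 6 others, with a log2 difference of -1.44 for HFD against Control (FDR = 0.016, and -1.25 with 0.058 without Control replicate 1) and of 1.74 for HFD+Mino against HFD (FDR = 0.0060, edgeR). The p23 gene Ptges3, which stabilizes the hormone-binding form of the receptors, showed the opposite order, with 22.7 to 30.2 CPM in Control, 43.2 to 49.3 CPM in HFD and 25.8 to 32.8 CPM in HFD+Mino (log2 difference 0.81, FDR = 0.046, for HFD against Control, and 0.83 with 0.132 without Control replicate 1). The median log2 difference over the list was -0.08 for HFD against Control and -0.03 for HFD+Mino against HFD, beside 0.0043 and 0.0089 over all genes.

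Of 12 receptor cofactors, 0 were called by edgeR in any of the comparisons, and 9 (75.0%) had an unadjusted p under 0.05 for HFD against Control, 6 higher and 3 lower, beside 20.5% of all genes. DESeq2 called 3 of 12 for HFD against Control (Ncoa2, Ncor1 and Med1), beside 6.91% of all genes, 6 of 12 for HFD+Mino against HFD, beside 23.0%, and 0 for HFD+Mino against Control, beside 1.59%. Without HFD+Mino replicate 3, edgeR called 4 for HFD+Mino against HFD, beside 21.4% of all genes. At an unadjusted p under 0.05 in edgeR, 1 was higher and 6 were lower (58.3% in all) for HFD+Mino against HFD, beside 41.3%, and for HFD+Mino against Control the number at that p was 0. The median log2 difference was 0.63 for HFD against Control and -0.62 for HFD+Mino against HFD, and 0.29 and 0.0013 with the trend on exon length removed. The first of these was 0.53 without Control replicate 1. Ncor1, a corepressor that recruits histone deacetylases, had 102, 102 and 104 CPM in Control, 41.1, 50.6 and 62.4 CPM in HFD and 92.0, 97.1 and 104 CPM in HFD+Mino. Its level in HFD thus lay below all 6 others (edgeR FDR = 0.017 for HFD against Control, and 0.055 without Control replicate 1). The coactivator Ncoa2, also called GRIP1, lay above them, at 21.1 to 34.9 CPM in Control, 44.8 to 55.7 CPM in HFD and 20.6 to 24.8 CPM in HFD+Mino (log2 difference 0.98, FDR = 0.043, and 0.86 with 0.165 without Control replicate 1).

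Of 9 genes of steroid metabolism and transport 7 were tested, and 0 were called in any of the comparisons by edgeR, with 0, 1 and 1 at an unadjusted p under 0.05 for HFD against Control, HFD+Mino against HFD and HFD+Mino against Control, beside 20.5%, 41.3% and 21.3% of all genes. Hsd11b2, the enzyme that inactivates corticosterone, had at most 0.402 CPM in any sample and was not tested. Of 13 stress axis signals and receptors 10 were tested, and 0 were called by edgeR in any comparison, with 1, 2 and 3 at an unadjusted p under 0.05. DESeq2 called 0, 1 and 0 genes of the first of these lists and 0, 2 and 1 of the second, beside 6.91%, 23.0% and 1.59% of all genes. Crh, the hormone of the PVN that drives the axis, had 20.6, 18.0 and 52.6 CPM in Control, 14.4, 49.8 and 49.8 CPM in HFD and 126, 153 and 25.6 CPM in HFD+Mino. The groups overlapped, and the HFD+Mino libraries with the high Crh levels were those with the high Avp levels (log2 difference 1.42 for HFD+Mino against HFD, edgeR FDR = 0.124).

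Of 30 other glucocorticoid-induced genes 29 were tested, and 0 were called in any of the comparisons by edgeR. DESeq2 called 1 (3.45%) for HFD against Control, 8 (27.6%) for HFD+Mino against HFD and 1 (3.45%) for HFD+Mino against Control (Mt2), beside 6.91%, 23.0% and 1.59% of all genes. For HFD+Mino against HFD, 12 (41.4%) had an unadjusted p under 0.05, which is near the 41.3% of all genes. All 12 were higher, beside 21.6% of all genes that were higher at that p, and the median log2 difference was 0.74, beside 0.0089 over all genes. With the trend on exon length removed, 9 were higher and 2 lower at that p, and the median was 0.52, beside 0.062 over all genes. Without HFD+Mino replicate 3, 9 were higher and 4 lower at that p, the median was 0.32, and edgeR called 6 of 30 for HFD+Mino against HFD and 4 for HFD+Mino against Control, beside 21.4% and 6.28% of all genes. Without Control replicate 1 it called 2 (6.67%) and 0 of 30, beside 5.27% and 0% of all genes. For HFD against Control, 1 was higher and 5 were lower at an unadjusted p under 0.05 (20.7%, beside 20.5% of all genes), and the median was -0.13, or -0.05 without Control replicate 1. Between HFD+Mino and Control, 7 were higher in HFD+Mino and 2 lower at that p (31.0%, beside 21.3%). Klf9, a transcription factor induced by GR and MR in neurons, had 83.2, 55.5 and 64.5 CPM in Control, 20.6, 37.8 and 37.4 CPM in HFD and 64.3, 41.7 and 96.5 CPM in HFD+Mino (log2 difference -1.08 for HFD against Control, edgeR FDR = 0.092, and -0.91 with 0.285 without Control replicate 1). Each HFD mouse lay below each Control mouse. Dusp1, a phosphatase that switches off MAP kinases, stood at 51.7, 65.8 and 74.9 CPM in Control, 29.2, 36.1 and 39.6 CPM in HFD and 39.1, 27.2 and 45.6 CPM in HFD+Mino, so that HFD+Mino overlapped HFD. The 1 gene that was higher in HFD than in Control at an unadjusted p under 0.05 was Mertk. It had 5.79, 7.09 and 9.33 CPM in Control, 14.8, 17.7 and 15.5 CPM in HFD and 5.37, 3.27 and 16.9 CPM in HFD+Mino. Its log2 difference was 1.11 for HFD against Control (edgeR FDR = 0.239, and 0.96 with 0.534 without Control replicate 1).

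The libraries in which these genes peaked were counted after their values had been seen. HFD+Mino replicate 3 was the highest of the 9 libraries for 13 of the 29 induced genes (44.8%), beside 4.69% of all tested genes, and for 4 of the 9 members. These 13 genes were Klf9, Klf15, Cdkn1a, Plin4, Bcl6, Irs2, Arrdc2, Hif3a, Mfsd2a, Arl4d, Sult1a1, Xdh and Fam107a. Among the members, the level in this mouse exceeded the next HFD+Mino mouse 2.49-fold for Fkbp5, 2.34-fold for Sgk1, 1.55-fold for Ddit4 and 1.16-fold for Tsc22d3. The receptors lay at the other end, with Nr3c1 at rank 8 and Nr3c2 at rank 9 of the 9 libraries. HFD+Mino replicate 1 was the highest library for 8 other genes of the list, among them the metallothioneins Mt1 (1815 CPM, against 1269 and 633 CPM in replicates 2 and 3) and Mt2 and the inhibitor of NF-kappaB Nfkbia, beside 18.8% of all genes. The markers of the 3 mice differed too, with PVN sums of 38064, 32524 and 3819 CPM and oligodendrocyte sums of 2458, 2271 and 5952 CPM in HFD+Mino replicates 1 to 3, and their part in these levels was not tested.

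**Figure D5:**
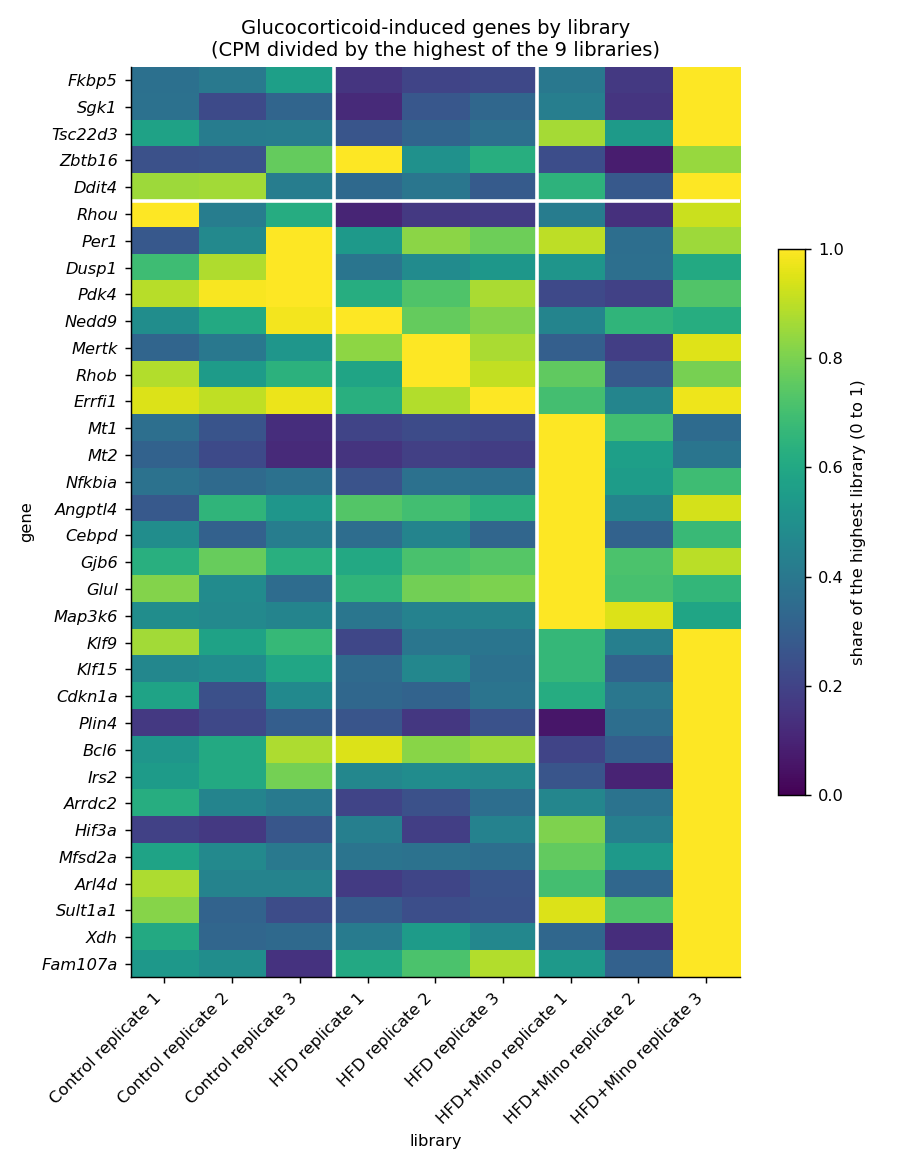
Level of 5 members (top rows) and of 29 other glucocorticoid-induced genes (rows) in each of the 9 libraries (columns), as CPM divided by the highest of the 9 libraries, from 0 to 1. Genes below the white line are ordered by the library in which they peaked, with 13 of 29 in HFD+Mino replicate 3 and 8 of 29 in HFD+Mino replicate 1.

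Likeness across the 9 samples is given as a description, since these points share group, library and tissue differences. Pearson's r of log2 CPM was 0.88 between Nr3c1 and Nr3c2, 0.84 between Fkbp5 and Sgk1 and 0.79 between Fkbp5 and Ddit4. With the 7 other members it ran from -0.87 (Ddit4) to 0.27 (Zbtb16) for Nr3c1 and from -0.87 (Fkbp5) to 0.16 (Zbtb16) for Nr3c2, and Zbtb16 was the 1 gene of the 7 with a positive r to either receptor. Among all tested genes, the patterns most like Nr3c1 were those of Rabep1 (r = 0.983), Akap12 (0.976) and Zfp84 (0.9754), and those most like Nr3c2 were Skil (0.980), Dmd (0.978) and Fat3 (0.970). Tmem259 (0.978), Tfdp1 (0.953) and Rnf166 (0.952) were most like Fkbp5, and Pitx3 (0.926), Prmt8 (0.923) and Zdhhc24 (0.905) most like Sgk1. For Crhr1 these were Gipr (0.982), Fech (0.974) and Gpt (0.973).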

How the data were processed

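The authors used HISAT2 for alignment to mm10 (GRCm38) and featureCounts for assignment to genes. They deposited raw counts per gene for all 9 samples, whole numbers without normalization. Strand setting and the treatment of reads with several positions are not given in the sources used here. A symbol was missing for 958 of 27179 genes, which held at most 0.0932% of a sample's counts. Groups and replicate numbers come from the sample labels, and 0 columns were left unused. The study's methods name 3 independent mice per group and tissue of 30 to 60 mg per sample.

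The main test was run in edgeR 4.0.16 (R 4.3.3) after filterByExpr and TMM scaling, and 1 quasi-likelihood model of the 3 groups was fitted to all 9 samples, since the study used edgeR, a 3-way test, an FDR under 0.01 and 1.5-fold. The 3-way call asks in addition that HFD is the highest or lowest group, 1.5-fold from the mean of the groups. SDs are over 3 mice. Reads carry no molecular identifiers, so precision was taken from the spread between mice, not from counting. No pair of replicates was as close as counting noise allows, with a chi-square between 21.0 and 316 for each degree of freedom. Exon lengths are from GENCODE release M21 and positions from RefSeq. Likeness is Pearson's r of log2 CPM (prior count 2). Promoter sequences are from RefSeq GRCm38.p6.

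The members, gene lists, tests and alternatives were chosen with earlier results of these data known. All 9 members were named in every sample, with the genes called in each list, up to 6 more by the size of their HFD against Control difference and those that explain a member, and the 3 genes most alike. The values of 1 gene that this rule names are not reported here. Alternatives were DESeq2 1.42.0, RLE factors, the likelihood ratio test, other filters and thresholds, ribosomal and mitochondrial genes left out, trends on length or GC content removed by lowess (span 0.3), models of 6 samples, each sample left out, and the replicate number as a block. Same-numbered Control and HFD+Mino samples deviated together (correlations of 0.135, 0.163 and 0.292 for replicates 1 to 3), while the pairs with HFD did not (-0.152 to -0.0062). The count columns number the HFD samples otherwise than their titles do, while Control and HFD+Mino keep the same numbers in both. The pairs with HFD thus share a number in the titles alone. No correlation was taken between samples with different title numbers, so how far these values stand apart from such pairs is not known. The labels name no shared litter, batch or day, so these numbers and the counts are the only sources for pairing Control with HFD+Mino. The code was tested on simulated data. The markers of other cell types were read as sums of CPM.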

Additional observations from a re-analysis of the deposited data

How the results depend on the processing

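The number of members called by edgeR was 0 for HFD against Control, 1 for HFD+Mino against HFD, 0 for HFD+Mino against Control and 0 in the 3-way test. For HFD against Control it was 1 (Hsd11b1) with DESeq2 (beside 6.91% of all genes), with the likelihood ratio test (5.57%) and with the replicate block in Control and HFD+Mino alone (6.22%). It was also 1 with that block and the length (5.21%) or GC trend (7.65%) removed. For HFD+Mino against HFD it was 2 at an FDR under 0.05 (Nr3c1 and Tsc22d3), beside 27.4% of all genes. It was 3 with the replicate block and the length trend removed (Fkbp5, Tsc22d3 and Hsd11b1), beside 16.1%. With the replicate block and the GC trend removed it was 2 (Tsc22d3 and Hsd11b1), beside 27.7%. In the model of 6 samples it was 0, beside 2.43%. In the 3-way test it was 1 (Tsc22d3) at an FDR under 0.05, without a filter on low counts and with the length trend removed, and 2 (Tsc22d3 and Hsd11b1) with DESeq2, with the likelihood ratio test and with the replicate block in Control and HFD+Mino alone, also with either trend removed. For HFD+Mino against Control it was 0 under all alternatives, beside at most 6.28% of all genes (without HFD+Mino replicate 3). With 1 sample left out, the counts ran from 0 to 0 for HFD against Control, HFD+Mino against Control and the 3-way test, and from 0 to 1 for HFD+Mino against HFD. The shares of all genes called in these fits ran from 0.335% to 3.08%, 0% to 6.28%, 0.0168% to 13.4% and 0.162% to 21.4%, in the same order. The replicate block in all 9 samples changed none of the 4 counts. Where a cause is not plain from the alternative itself, the cause was not tested.

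Of 351 member differences under other settings, 337 kept their direction and side of the thresholds and 5 changed sign, and of 243 with 1 sample left out 227 kept both and 10 changed sign. In the main test 1 member difference was called, that of Tsc22d3 for HFD+Mino against HFD, so the others had no call to lose. This call was lost in 6 of the fits with 1 sample left out. All changes of sign were in HFD+Mino against Control. The log2 difference of Nr3c2 was 0.13 with the length trend removed and 0.10 with the replicate block besides, that of Fkbp5 was -0.093 with the replicate block in Control and HFD+Mino alone and -0.095 with the GC trend removed as well, and that of Zbtb16 was 0.060 with the length trend removed. With 1 sample left out, these differences ran from -0.082 to 0.23 for Nr3c1, -0.30 to 0.0039 for Nr3c2, -0.66 to 0.65 for Fkbp5, -0.089 to 1.21 for Sgk1, -1.14 to 0.052 for Hsd11b1, -1.41 to 0.63 for Zbtb16 and -0.63 to 0.21 for Ddit4. The samples are 3 mice per group, the smallest library is HFD replicate 1 at 17728590 counts, and low counts limit the precision for Zbtb16 (19 to 276), Crhr1 (55 to 616) and Ddit4 (78 to 421).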
